A study of Mus musculus with 4 samples.

Results

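The kappa variable segments of the mouse were followed in droplet single-cell RNA-seq of colon leukocytes, as all 160 genes whose symbol starts with Igkv, out of 31053 genes in the count matrices. The cells were sorted for the surface protein CD45 from the whole colon of wild-type (WT) C57BL/6 mice. Control mice had received the control treatment and stress mice 7 days of daily restraint, with 2 libraries per group. The labels give neither the age or sex of the mice nor whether each library is a separate animal. The p-values therefore describe the spread among these 4 samples alone, which may be technical. Plasma cells were taken as cells with at least 0.5% of their unique molecular identifiers (UMIs, counted molecules) on Jchain and at least 3 UMIs summed over Mzb1, Derl3, Tnfrsf17 and Txndc5. This gave 200 plasma cells for control 1, 156 for control 2, 947 for stress 1 and 644 for stress 2, together 1947 of 19234 kept cells. B cells were the remaining cells with at least 2 UMIs of Cd79a and Cd79b, 9258 in all. Each cell was assigned the Igkv segment with most UMIs, and cells with a tie or without an Igkv UMI were left unassigned.

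An antibody light chain of the kappa type is built by joining 1 variable segment (Igkv) to 1 joining segment (Igkj) in the bone marrow, and the joined exon is spliced to the constant gene Igkc. Most mouse antibodies carry a kappa chain, the rest a lambda chain. The choice of segment fixes most of the light chain's antigen-contacting surface, and since a B cell normally expresses 1 light chain, the segment labels a B cell and its offspring. Plasma cells are the antibody-secreting end stage of B cells. Those of the colon mostly make IgA, which is joined by the J chain (Jchain) and carried across the epithelium into the gut lumen.

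The germline 3′ ends of the segments that the results turn on are given first. Related segments also differ outside this end. All lie on chromosome 6 of GRCm38 (the assembly also called mm10) and come from the GENCODE vM21 transcripts. Each line is the last 60 bases of the variable exon, 5′ to 3′ on the coding strand. Capitals start at the codon of the conserved cysteine that closes the framework and run through the germline part of the third complementarity-determining region. The first 5 segments were the most used in plasma cells, at chr6:68271208-68271267 (+ strand), chr6:68631963-68632022 (-), chr6:68256810-68256869 (+), chr6:68121768-68121827 (+) and chr6:70406469-70406528 (-).
Igkv1-110: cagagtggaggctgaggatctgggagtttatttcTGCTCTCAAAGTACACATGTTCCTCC
Igkv10-96: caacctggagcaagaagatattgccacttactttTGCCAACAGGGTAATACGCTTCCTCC
Igkv14-111: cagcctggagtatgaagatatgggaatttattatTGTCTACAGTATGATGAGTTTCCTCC
Igkv1-117: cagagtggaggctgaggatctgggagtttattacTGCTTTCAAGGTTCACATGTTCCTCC
Igkv6-15: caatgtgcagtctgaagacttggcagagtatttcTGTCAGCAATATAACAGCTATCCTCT

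The next set holds the segments that set single libraries or groups apart: Igkv4-61 (control 1), Igkv14-100 (control 2), Igkv5-48 (the kappa and heavy pair found in every library), Igkv12-44 and Igkv12-46 (stress libraries), Igkv1-135 (the leading segment of B cells) and Igkv4-70 (the gene that passed the test between groups). They lie at chr6:69416893-69416952 (-), chr6:68519418-68519477 (+), chr6:69726573-69726632 (-), chr6:69814631-69814690 (-), chr6:69764523-69764582 (-), chr6:67610449-67610508 (+) and chr6:69267888-69267947 (-).
Igkv4-61: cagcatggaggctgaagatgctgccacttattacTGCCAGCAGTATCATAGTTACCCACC
Igkv14-100: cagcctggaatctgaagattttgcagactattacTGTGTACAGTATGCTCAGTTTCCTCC
Igkv5-48: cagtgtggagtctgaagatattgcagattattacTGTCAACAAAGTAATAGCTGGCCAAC
Igkv12-44: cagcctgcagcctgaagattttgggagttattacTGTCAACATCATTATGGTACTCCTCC
Igkv12-46: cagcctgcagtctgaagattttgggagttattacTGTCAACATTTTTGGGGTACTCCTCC
Igkv1-135: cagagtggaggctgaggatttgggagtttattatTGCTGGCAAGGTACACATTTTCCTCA
Igkv4-70: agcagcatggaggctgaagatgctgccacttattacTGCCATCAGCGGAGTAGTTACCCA

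Related segments can exchange reads. Over the last 95 codons of the transcript, 56 of the 160 segments, and 12 of the 18 described by usage below, had a relative of at least 95% identity. Igkv1-110 and Igkv1-117 were 96.8% identical, Igkv12-44 and Igkv12-46 94.7%, and Igkv10-96 and Igkv10-94 94.4%. Values of such pairs are uncertain to the extent that the authors' counting split or dropped shared reads.

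The control libraries held 13806189 and 21465320 UMIs and the stress libraries 37010518 and 39074920, and plasma cells had median depths of 18044.5 and 18430 UMIs (controls) and of 12178 and 22807 UMIs (stress). The shallowest and the deepest plasma cells were thus both from stress libraries. Of the plasma cell markers, Xbp1, a transcription factor of secretion, was found in 99.1 to 100% of the plasma cells. Sdc1, the surface protein CD138, was found in 79.9 to 91.7%, Prdm1 in 31.6 to 50.9% and Irf4 in 31.7 to 50.6%. Of the B cell markers, Ms4a1, the protein CD20, was found in 3 to 7.69%. Cd79a and Cd79b, the genes of the B cell gate, were found in 91.6 to 96.4% and 84.6 to 88.5%. The 7 T cell markers summed to 55.6, 181.7, 71.2 and 54.8 CPM, counts per 1000000 UMIs, in the 4 plasma cell sums, so control 2 carried the most, and Trac was seen in 21.8% of its plasma cells against 7.00 to 8.23% elsewhere. The 5 macrophage markers summed to 19.5 to 88.3, the 4 epithelial markers, almost all Epcam, to 79.7 to 92.5, and the 3 fibroblast markers to 0 to 5.53. Their part in the segment values was not tested. Of the 19200 different barcodes among kept cells 34 occurred in more than 1 library, and of the 1947 among plasma cells 0 did.

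Kappa segment RNA was found in nearly every plasma cell. An Igkv UMI was present in 94.5% and 94.2% of control and 93.8% and 96.3% of stress plasma cells, and 188, 147, 877 and 599 cells were assigned. Only 1, 0, 11 and 21 cells were tied, and 11, 9, 59 and 24 had no Igkv UMI. Medians of 19 and 13 Igkv UMIs per cell in controls, and of 9 and 19 in stress, followed the order of neither group. The segments are captured thinly beside the constant gene, with 3.39, 2.12, 2.36 and 2.65 Igkv UMIs per 1000 UMIs of Igkc. Cells with more lambda than kappa constant UMIs made up 6.50, 5.77, 5.49 and 4.50% of plasma cells and had a median of 0 Igkv UMIs in each library, against 20, 14, 10 and 19 in the kappa cells. Igha was the leading heavy-chain constant gene of 95, 95.5, 95.4 and 96% of the plasma cells. The joining segments Igkj1 to Igkj5 are rows of the matrices but held 0 UMIs in plasma cells, so the joined exon could be read only by its variable part.

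In most plasma cells 1 segment held most of the Igkv UMIs. Drawing 2 Igkv UMIs from a cell, the probability that both named the same segment was 89.3 and 90.6% in controls and 86.8 and 81.7% in stress, averaged over 185, 143, 856 and 602 cells with at least 2 such UMIs. All Igkv UMIs of a cell named 1 segment in 60.5 and 64.3% of these cells in controls and in 65.4 and 48.2% in stress. Among the 1156 plasma cells with 10 or more Igkv UMIs, 179 had a second segment of at least 20%. These were 9.21 and 11.6% of such cells in controls and 17.4 and 18% in stress, and the groups did not overlap. Their median depth was 28073 UMIs against 18049 in the other cells, and the part of depth in that difference was not tested. The 179 cells spread over 144 different combinations, and in 17 of them the pair of segments was at least 85% identical, such as Igkv4-59 with Igkv4-72.

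Of the 160 segments 122 had a UMI in at least 1 deposited barcode and 38 had none. In plasma cells 85 segments were the leading segment of at least 1 cell, 36 of them in all 4 libraries. GENCODE annotates 100 of the 160 as functional variable genes and 60 as pseudogenes. The functional genes accounted for 82 of the 85, and 3 pseudogenes led 5 plasma cells.

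No segment dominated the plasma cells of all libraries. Igkv1-110 had the highest mean share, with 5.32 and 8.16% of assigned plasma cells in controls 1 and 2. In stress 1 and 2 it held 4.79 and 8.01%, so its groups overlapped. Igkv10-96 held 5.32, 7.48, 7.87 and 4.67% and Igkv14-111 held 2.13, 10.2, 4.90 and 5.34%. In both, the 2 controls lay farther apart than the means of the groups. Igkv6-15 held 6.91, 2.72, 4.68 and 3.01%, again with overlapping groups. Exact binomial (Clopper-Pearson) 95% intervals of these shares were wide in controls, for example 5.82 to 16.3% for Igkv14-111 in control 2 against 3.57 to 6.55% in stress 1. Such intervals cover counting error only.

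**Figure D1:**
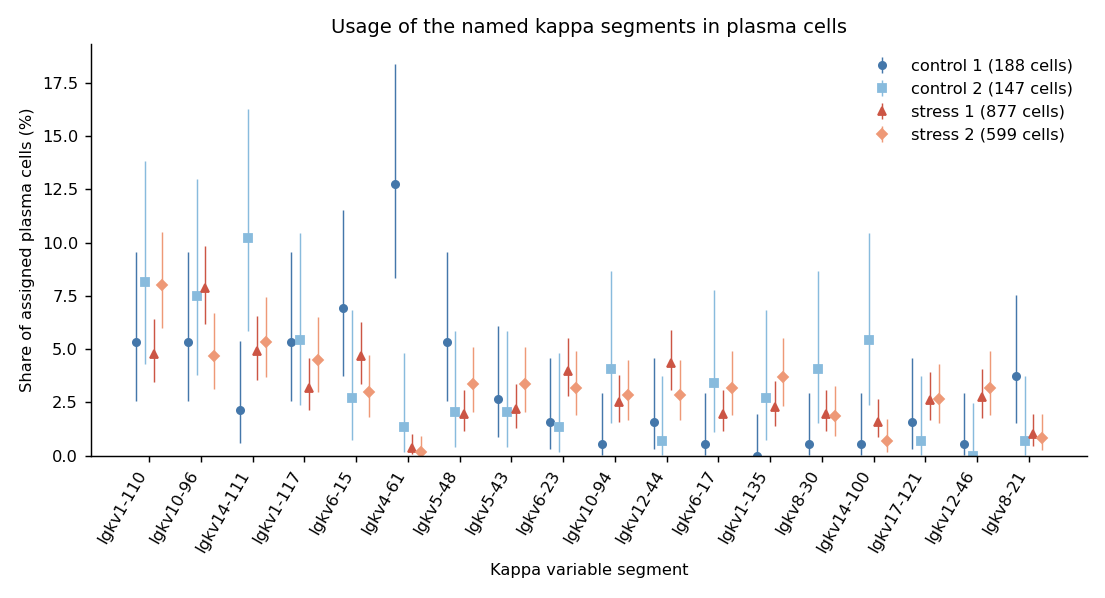
Share of assigned plasma cells (%, vertical axis) whose leading segment is each of 18 kappa variable segments (horizontal axis, ordered by mean share), with 1 symbol per library and bars for exact binomial 95% intervals. Igkv4-61 stands at 12.8% in control 1 and at 0.167 to 1.36% in the other libraries, while Igkv1-110 lies between 4.79 and 8.16% in all 4.

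Between groups, 6 of the 18 segments had shares that did not overlap, 2 lower and 4 higher under stress. Among all 53 segments of at least 10 assigned plasma cells 20 did not overlap (37.7%), 14 higher (26.4%) and 6 lower (11.3%) under stress, so the 18 did so about as often as all 53. Igkv12-44 held 1.60 and 0.680% in controls and 4.33 and 2.84% in stress. Igkv12-46 held 0.532 and 0% in controls and 2.74 and 3.17% in stress, from 1, 0, 24 and 19 cells. The exact interval of control 2, with 0 of 147 cells, reaches 2.48% and overlaps those of both stress libraries. Igkv6-23 went from 1.60 and 1.36% to 3.99 and 3.17%, and Igkv17-121 from 1.60 and 0.680% to 2.62 and 2.67%. Lower under stress were Igkv1-117, from 5.32 and 5.44% to 3.19 and 4.51%, and Igkv4-61. Each of the 6 reached p = 0.33 in the two-sided exact permutation test over libraries, the smallest that 2 against 2 libraries can give, so none can pass 0.05 in this design.

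Igkv4-61 stood apart through 1 library. It was the leading segment of 24 of 188 assigned plasma cells in control 1 (12.8%, interval 8.35 to 18.4%), of 2 in control 2 (1.36%), of 3 in stress 1 (0.342%) and of 1 in stress 2 (0.167%). The group means, 7.06% ± 8.06 (SD, n = 2) in controls and 0.255% ± 0.124 (SD, n = 2) in stress, differ by less than the spread of the controls. Igkv14-100 did the same in control 2, with 5.44% against 0.532% in control 1 and 1.60 and 0.668% in stress. Igkv8-21 was highest in control 1, 3.72% against 0.680 to 1.03%.

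The heavy-chain partners described these cells further. A heavy variable segment (Ighv) could be assigned in the same way in 1639 of the assigned plasma cells. In control 1, 21 of the 24 Igkv4-61 cells had Ighv1-47 as their leading heavy segment, against 5 of the 146 other plasma cells of that library. In control 2, 1 of 2 Igkv4-61 cells did, and in stress 1 and 2, 0 of 3 and 0 of 1. In control 2 all 8 Igkv14-100 cells with a heavy segment had Ighv6-6, against 0 of 129 other cells, whereas 0 of 11 and 0 of 3 Igkv14-100 cells of stress 1 and 2 had it. Igkv4-61 in control 1 and Igkv14-100 in control 2 were thus mostly a single kappa and heavy combination. Other segments high in a control varied. The 5 Igkv8-21 cells of control 1 with a heavy segment had 3 different ones. In control 2, 7 of the 14 Igkv14-111 cells had Ighv1-12, against 4 of 123 other cells. Igkv10-94, named after its values were seen, was highest in control 2 at 4.08%. There 4 of its 6 cells had Ighv6-3, against 2 of 131 other cells. Whether cells with the same combination descend from 1 B cell cannot be read from segment names, since the joints were not sequenced into these counts.

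Igkv5-48 with Ighv1-76 was the combination seen most often across libraries. It was found in 4 of 9 Igkv5-48 cells in control 1, 2 of 2 in control 2, 7 of 16 in stress 1 and 11 of 20 in stress 2, together 24 of 47, against 54 of 1592 cells with other kappa segments. A further 13 of the 47 had Ighv1-64. Igkv12-46 with Ighv1-26 was found in 7 of 18 and 8 of 17 Igkv12-46 cells of stress 1 and 2. Other cells of these libraries had Ighv1-26 in 19 of 754 and 15 of 543. The controls held 0 Igkv12-46 cells with a heavy segment. Igkv17-121 with Ighv14-2 was found in 7 of 21 and 4 of 16 Igkv17-121 cells of stress 1 and 2. Other cells there had Ighv14-2 in 7 of 751 and 13 of 544. In control 1 it was found in 0 of only 3 Igkv17-121 cells, and control 2 had 0 Igkv17-121 cells with a heavy segment. For the most used segment, Igkv1-110, the leading partners over 104 cells were Ighv1-81 (18 cells), Ighv1-59 (11) and Ighv5-17 (8). All 18 cells with Ighv1-81 were from stress libraries, 12 and 6. The controls held 10 and 11 Igkv1-110 cells with a heavy segment in all, against 37 and 46 under stress. Among cells with other kappa segments, Ighv1-81 led 5 of 160 and 3 of 126 in controls. It led 21 of 735 such cells in stress 1 and 34 of 514 in stress 2. In stress 2 the share was thus 13.0% of Igkv1-110 cells against 6.61% of the others. These pairs were chosen after their values were seen.

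**Figure D2:**
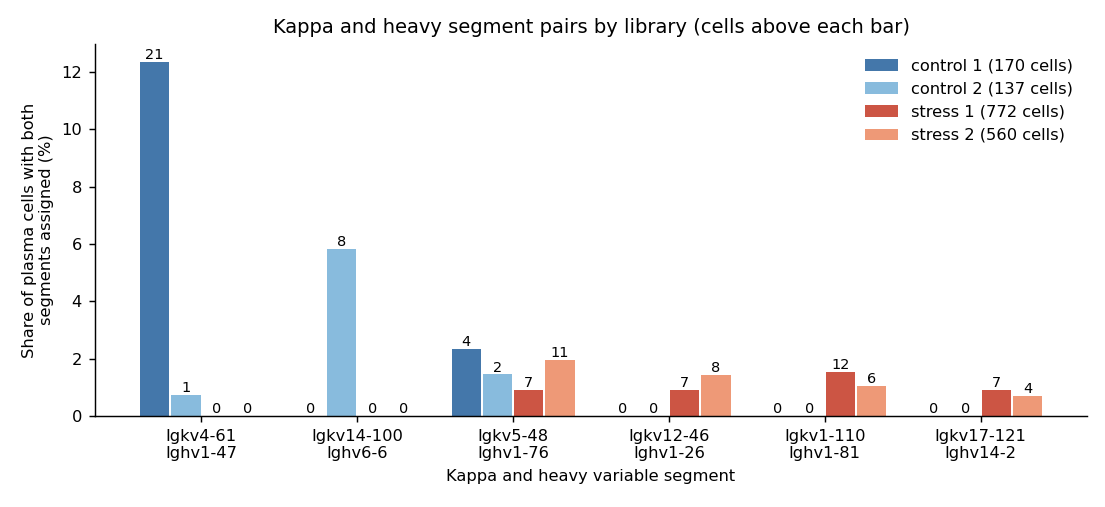
Share of plasma cells with both a kappa and a heavy variable segment assigned (%, vertical axis) that carry each of 6 combinations (horizontal axis), with 1 bar per library and the number of cells above it. Igkv4-61 with Ighv1-47 reaches 21 of 170 cells in control 1 and Igkv14-100 with Ighv6-6 reaches 8 of 137 in control 2, while Igkv5-48 with Ighv1-76 has cells in all 4 libraries.

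Over the 1639 cells there were 821 different combinations. Of these 658 occurred in 1 library, 137 in 2, 22 in 3 and 4 in all 4. The 4 were Igkv5-48 with Ighv1-76 (24 cells), Igkv1-117 with Ighv1-81 (11), Igkv1-117 with Ighv9-3 (7) and Igkv9-124 with Ighv1-18 (5). The largest combination of each stress library took a smaller share than that of each control: 12 of 772 cells in stress 1 (Igkv1-110 with Ighv1-81) and 11 of 560 in stress 2 (Igkv5-48 with Ighv1-76), that is 1.55 and 1.96%, against 12.4 and 5.84%. The share of a largest combination depends on the number of cells, which was only 170 and 137 in controls. The part of cell number in this was not tested.

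Usage was more concentrated in the control plasma cells. The effective number of segments is the number of equally used segments that would give the same chance of drawing 2 cells with the same segment. That chance was estimated without bias from the number of cells. Its inverse, the effective number, is not unbiased and is unstable with few cells. It was 27.0 and 28.3 in controls and 37.9 and 36.4 in stress, a difference of 9.48 with no overlap (two-sided exact permutation test, p = 0.33, the smallest possible). The 5 most used segments of each library held 35.6 and 36.7% of the control and 26.6 and 26.2% of the stress cells, a difference of -9.80 percentage points with the same p. This share depends on the number of cells, 188 and 147 in controls and 877 and 599 in stress. The part of cell number in the difference was not tested. At an equal number of 147 cells, 49.6 and 47 different segments would be expected in controls and 52.8 and 49.8 in stress, where control 1 and stress 2 differ by little.

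That difference was smaller under 5 other ways of counting. It was 1.29 when only cells with at least 10 Igkv UMIs were used, where stress 1 fell to 27.7 beside 29.4 and 32.1 in controls, and 3.67 when UMIs were counted in place of cells. It was 5.30 without Igkv4-61, and 2.08 when each kappa and heavy combination was counted once per library, where the 4 libraries had 44.6, 40.4, 44.1 and 45.1. It was 6.47 where the leading segment needed 80% of a cell's Igkv UMIs. The groups did not overlap without Igkv4-61 and overlapped in the other 4.

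**Figure D3:**
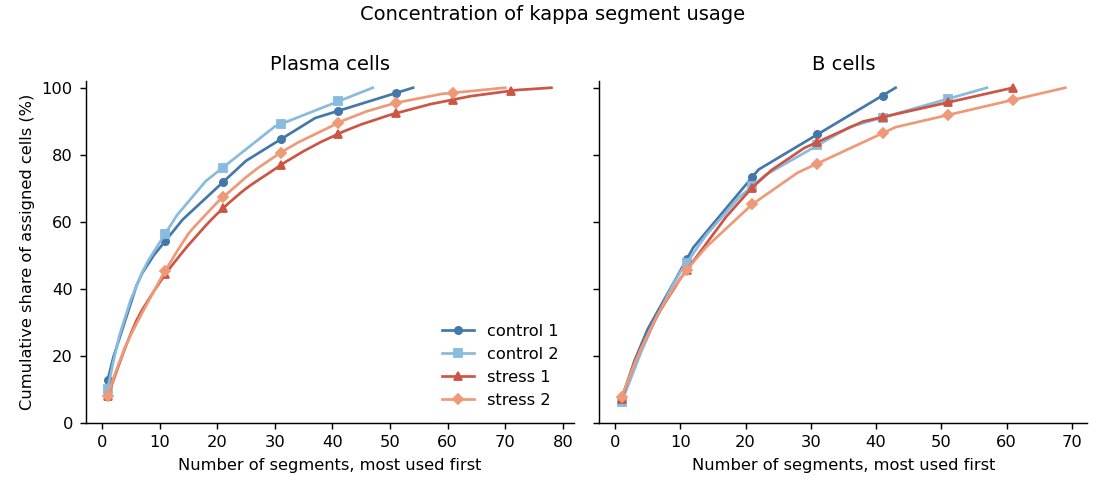
Cumulative share of assigned cells (%, vertical axis) against the number of segments, most used first (horizontal axis), for plasma cells (left) and B cells (right), with 1 line per library and a symbol at every 10 segments. In plasma cells the control lines lie above the stress lines, and their first 5 segments hold 35.6 and 36.7% against 26.6 and 26.2%. In B cells the first 5 hold between 25.6 and 27.9% in all 4 libraries. The lines depend on the number of cells, which was lower in the control plasma cells.

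The overlap of usage between libraries, which is 100% for identical shares, was 52.4% between the controls and 76.7% between the stress libraries. Between groups it ran from 57.6 to 64.5%. The 2 controls were thus less alike than any control and stress pair, and the controls also had the fewest assigned cells, whose part in this was not tested.

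The number of molecules recovered differed between segments. Among the 30 segments leading at least 20 kappa plasma cells, the median of the segment's UMIs per 1000 Igkc UMIs ran from 1.13 for Igkv4-59, 1.27 for Igkv4-72 and 1.35 for Igkv6-17 to 3.56 for Igkv8-21, 4.49 for Igkv12-44 and 4.57 for Igkv16-104. A share of UMIs therefore weights segments unequally. Igkv12-44 was the leading segment of 4.33% of the cells of stress 1 and made up 12.3% of their Igkv UMIs. Its difference between groups, 2.45 percentage points by cells, was 7.61 by UMIs.

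**Figure D4:**
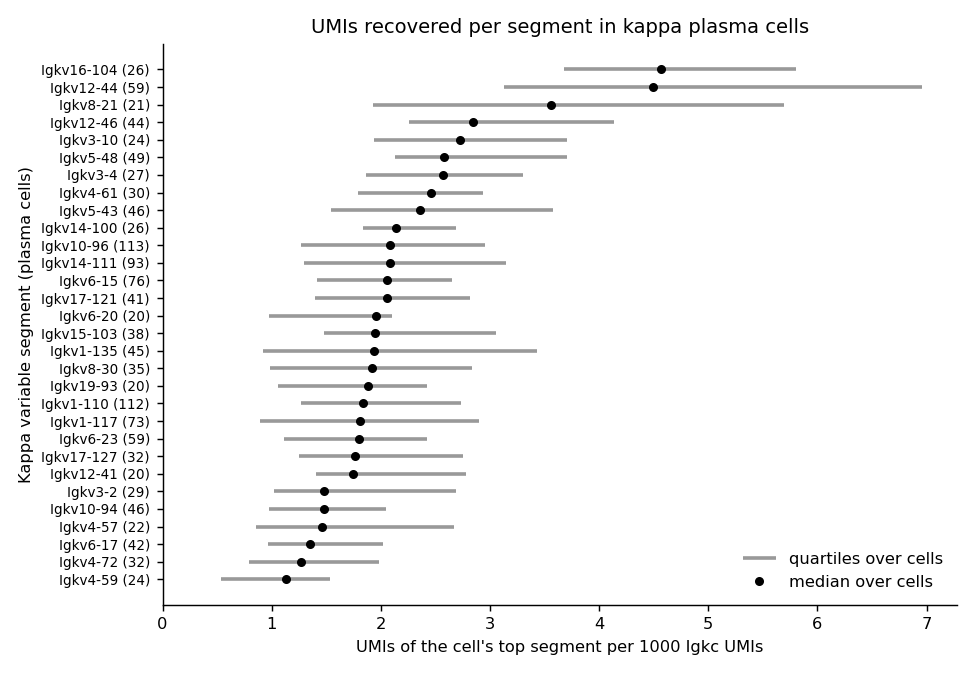
UMIs of a cell's leading segment per 1000 Igkc UMIs (horizontal axis) for 30 segments (vertical axis, number of plasma cells in brackets), with points for medians and lines for quartiles over cells of all libraries. Medians run from 1.13 for Igkv4-59 to 4.57 for Igkv16-104.

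B cells were read from far fewer molecules. An Igkv UMI was found in 9.27, 6.53, 6.39 and 13.1% of the 928, 2801, 3692 and 1837 B cells, which had medians of 2161.5, 2345, 1678 and 3407 UMIs, and 86, 180, 228 and 221 were assigned, mostly by 1 UMI. In T cells, which do not express kappa chains, the share was 3.10, 0.548, 1.31 and 3.53% at medians of 3079.5, 3538, 2228 and 4535 UMIs. Igkv genes summed to 35.2, 25.8, 29.1 and 37.7 CPM in B cells and to 10.0, 1.46, 5.37 and 7.22 CPM in T cells. The B cell level was 3.51 to 17.7 times that of T cells within a library, so a part of the B cell assignments is at the level of free RNA. Only 4, 13, 13 and 42 B cells had at least 2 Igkv UMIs, and the probability that both named the same segment was 100, 66.7, 33.3 and 46.7%. Igha was the leading heavy-chain constant gene of 10.1 and 3.71% of control and 23.0 and 28.0% of stress B cells, and of 37.9, 30.9, 70.6 and 91.0% of T cells, so IgA RNA moved with the groups in both. The part of plasma cell RNA in the B cell usage was not tested.

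Igkv genes were 41.4, 31.7, 33.1 and 28.9 times as abundant, in CPM, in plasma cells than in B cells of the same library. Igkc itself had 7509, 7283, 5260 and 10373 UMIs per plasma cell and 18.4, 19.3, 17.0 and 36.4 per B cell. In the test across all genes (edgeR's quasi-likelihood test on counts summed per library and cell type, library as a block, Benjamini-Hochberg adjusted p under 0.05), 31.1% of 10376 genes were higher in plasma cells. All 41 Igkv genes that passed the filter on low counts were higher, by 4.50 to 9.08 on the log2 scale with a median of 6.76, against -0.07 over all genes tested. Genes with few B cell UMIs passed that filter through the plasma cells, where they are high. The filter thus largely set the 41 of 41 in advance, and the count is not one of all 160 segments. Without the filter 80 of 116 Igkv genes were called, all higher, and 11 of the 116 were not higher in plasma cells. That fit called 41.8% of all genes. Without TMM scaling the calls over all genes went from 3222 higher and 3561 lower to 814 and 8640, and the 41 Igkv genes were still higher. Igkc rose by 7.31 (SE 0.13, adjusted p = 2.60e-05).

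Among single segments Igkv1-110 rose by 7.27 (SE 0.18), from 30 UMIs in all B cells to 2099 in plasma cells. Igkv4-61 had 3 UMIs in B cells, all in control 1, and 429 in plasma cells. Igkv3-11 had 0 UMIs in B cells and 217 in plasma cells, which is at least 56.6-fold higher against a floor of 3 counts over all B cells. Of the 38 light chain and antibody genes listed for comparison 23 were tested, 17 rose, 4 fell and 2 did not pass. Those that rose included Iglv1 (8.75), Igha (9.65), Jchain (9.34, used by the gate) and the plasma cell regulators Xbp1 (5.80) and Prdm1 (4.73). Those that fell included Ighd (-5.51), the B cell transcription factor gene Pax5 (-5.48) and Pigr (-3.77).

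B cells used the segments in a different order. Igkv1-135 led with 5.81 and 3.89% of assigned B cells in controls and 7.02 and 4.52% in stress, followed by Igkv12-44 with 2.33, 4.44, 5.26 and 7.69%. The 10 most used segments of B cells and of plasma cells had 6 in common, and 74 segments led cells of both types. Within libraries, usage in plasma cells and B cells overlapped by 50.8, 53.4, 62.1 and 66.2%.

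By cells, Igkv1-110 was higher in plasma cells than in B cells in 4 of 4 libraries, by 3.57 percentage points (SD 2.34, n = 4). Igkv10-96 (1.75), Igkv10-94 (1.79), Igkv5-43 (1.31), Igkv8-30 (1.29) and Igkv4-61 (2.79, of which control 1 gave most) were also higher in 4 of 4. Igkv1-135 was lower in plasma cells in 4 of 4 libraries, by -3.14 points (SD 2.50, n = 4), and so was Igkv12-44 (-2.57). Each of these has p = 0.12 in the two-sided exact sign-flip permutation test over libraries, the smallest that 4 pairs can give. Outside the 18 segments, Igkv12-89 (-2.22) and Igkv19-93 (-1.47) were lower in 4 of 4 and are named after their values were seen. Igkv19-93 varied least, with 1.06, 1.36, 1.14 and 1.00% of plasma cells against 2.33, 2.78, 2.63 and 2.71% of B cells.

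B cells were assigned mostly by 1 UMI and plasma cells by many, so the comparison was repeated, after its values were seen, with shares of Igkv UMIs in both cell types. By UMIs, Igkv1-110 (2.98 points, SD 2.63), Igkv5-43 (1.23), Igkv10-94 (1.31), Igkv8-30 (0.77) and Igkv4-61 (1.07) were still higher in plasma cells in 4 of 4 libraries, and Igkv10-96 (1.18) was in 3 of 4. Igkv12-44 turned to 1.19 points higher in plasma cells (SD 4.54, higher in 3 of 4), with 2.26, 2.40, 12.3 and 7.55% of plasma cell UMIs against 2.22, 5.53, 4.74 and 7.30% of B cell UMIs. Igkv1-135 (-2.83), Igkv12-89 (-2.06) and Igkv19-93 (-0.78) were lower on average but higher in 1 of 4 libraries. The lower share of these 4 segments in plasma cells thus did not hold in all libraries by UMIs.

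**Figure D5:**
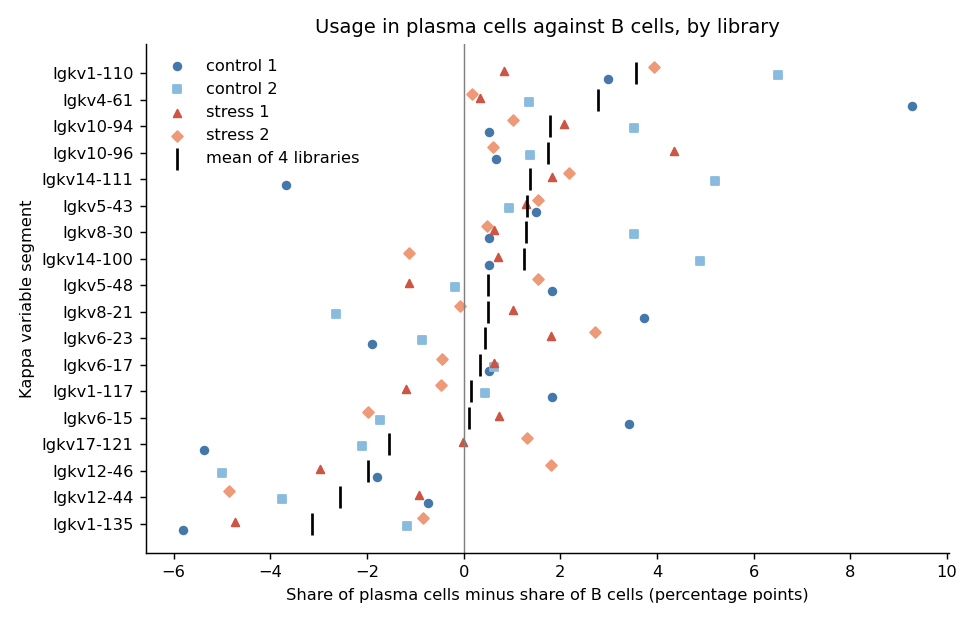
Share of assigned plasma cells minus share of assigned B cells (percentage points, horizontal axis) for 18 kappa segments (vertical axis), with 1 symbol per library and a bar for the mean of the 4 libraries. By cells Igkv1-110 lies above 0 in all 4 libraries with a mean of 3.57, and Igkv1-135 and Igkv12-44 lie below 0 in all 4 with means of -3.14 and -2.57; by UMIs Igkv12-44 turns to 1.19.

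Families are named by the first number of a symbol. By cells, the Igkv12 family held 4.26, 4.76, 9.01 and 7.35% of plasma cells and 14.0, 12.2, 14.5 and 11.3% of B cells, lower in plasma cells in 4 of 4 libraries by -6.65 points (SD 2.49, exact sign-flip permutation p = 0.12). By UMIs it held 4.20, 6.92, 19.2 and 15.4% of plasma cells' and 14.4, 13.6, 13.4 and 10.8% of B cells' Igkv UMIs, so it was lower in both controls and higher in both stress libraries. Igkv4, the largest family with 33 genes, held 24.5, 15.0, 14.3 and 10.0% of plasma cells and 9.30, 7.78, 6.14 and 10.9% of B cells, higher in 3 of 4 (p = 0.25 by the same exact test), and by UMIs the mean difference went from 7.41 to 0.59 points. Within plasma cells 7 of the 20 families (35%) had groups that did not overlap, among them Igkv4, lower under stress, and Igkv12, higher. Without Igkv4-61 the other Igkv4 segments held 11.7 and 13.6% in controls and 13.9 and 9.85% in stress, which overlap. Igkv9 held 4.26 and 4.76% in controls and 0.912 and 1.34% in stress. Igkv6 had a mean of 13.0% in both cell types, with libraries on both sides: it was higher in plasma cells in 2 of 4, with an SD of the difference of 3.66 points. The Igkv1 family, which holds both Igkv1-110 and Igkv1-135, differed by -0.15 points (SD 4.18) and was higher in plasma cells in 2 of 4.

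Usage was also read by position and strand along the locus, without a test. The array spans 3149 kb from 67555497 to 70704177 on chromosome 6, upstream of Igkc at 70726435 to 70726966, and segments lie in both orientations. The third of the array nearest Igkc held 43.1, 27.9, 44.2 and 44.6% of plasma cells and 36.0, 45.6, 49.6 and 48.4% of B cells. Segments on the + strand, which point the same way as Igkc, held 31.4, 50.3, 40.5 and 45.1% of plasma cells. They held 47.7, 52.8, 45.6 and 46.2% of B cells, so the + share was lower in plasma cells in every library. Control 1 had the lowest + share. Igkv4-61, on the - strand, was frequent there, and its part in that share was not tested.

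The effective number of segments in B cells was 46.9 and 41.1 in controls and 39.3 and 42.6 in stress, a difference of -3.06 (exact permutation p = 0.667) with overlapping groups. It exceeded that of plasma cells in 4 of 4 libraries, by 19.8 and 12.8 in controls and by 1.35 and 6.17 in stress, with a mean of 10.0 (two-sided exact sign-flip permutation test, p = 0.12, the smallest possible). At 86 cells, 43, 41.4, 40.6 and 44.5 segments would be expected in B cells and 39.0, 37.4, 41.6 and 39.9 in plasma cells, so stress 1 had no fewer in plasma cells. The largest difference in effective number, 19.8, was in control 1, with only 86 assigned B cells. With the exponential of the Shannon entropy, an index that grows with the number of cells, the mean difference between the cell types was 1.22.

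Between stress and control, few Igkv genes differed in summed counts. In plasma cells edgeR called 46 of 9529 genes (0.483%), 6 higher (0.063%) and 40 lower under stress, among them 1 of the 70 Igkv genes tested. The median log2 change over the 70 was -0.02, against -0.0008 over all genes tested, and 14 of the 70 (20%) had an unadjusted p under 0.05, as had 10.5% of all genes tested. The gene was Igkv4-70, with 0 and 0 UMIs in controls and 68 and 75 in stress. These UMIs came from 11 and 5 stress plasma cells, of which it led 9 and 3. It passed with an edgeR adjusted p of 0.0258. Set against a floor of 3 counts over the control plasma cells, its stress UMIs were 10.8-fold higher. This is not a lower bound, since the 143 stress UMIs came from 16 cells, with up to 31 in 1 cell. A floor of 3 cells would allow 0.843% of control plasma cells, against 1.01% seen in stress. Cells with an Igkv4-70 UMI were 11 of 947 and 5 of 644 stress plasma cells and 0 of 200 and 0 of 156 control plasma cells. Pooled over libraries these were 16 of 1591 (1.01%, exact interval 0.576 to 1.63%) and 0 of 356, whose interval reaches 1.03%. The 2 intervals overlap, but they cover counting error only. A difference in the share of cells with an Igkv4-70 UMI was not tested over libraries. It did not pass without stress 2 (adjusted p = 0.104) or with marked doublets kept (adjusted p = 0.0841).

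The number of Igkv genes called in plasma cells moved with the libraries used: 8 of 76 tested without control 1 (7 higher, 1 lower), 16 of 77 without control 2 (4 higher, 12 lower), 25 of 69 without stress 1 (13 higher, 12 lower) and 1 of 71 without stress 2. Over all genes the same fits called 1.70, 1.55, 2.00 and 0.177%. The balance of higher and lower Igkv genes thus turned with the control left out. DESeq2 called 5 of 70, 2 higher and 3 lower, and 0.934% of all genes. Large differences that did not pass included Igkv12-44, with 115 and 58 UMIs in controls and 1451 and 1338 in stress (log2 1.89, SE 0.34, adjusted p = 0.166 by edgeR), and Igkv9-124, with 107, 58, 55 and 36 UMIs (log2 -2.98, SE 0.42, adjusted p = 0.0836 by edgeR). For Igkv9-124 the UMIs of control 1 came from 4 cells, and 1 cell gave 52 of the 107. These 2 genes were named after their values were seen.

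Of the 38 listed light chain and antibody genes 22 were tested in plasma cells, 0 rose and 1 fell, and their median log2 change was 0.09. Iglc3, a lambda constant gene, fell by 2.11 (SE 0.23, edgeR adjusted p = 0.00970), from 4893 and 6598 normalised CPM in controls to 1561 and 1104 in stress. Iglc2, a lambda constant gene of similar sequence, had a log2 change of 1.34 that did not pass. How reads were divided between the pair was not tested. Igkc changed by -0.01 (SE 0.20, adjusted p = 0.997 by edgeR).

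In B cells 13 of 10721 genes were called (0.121%), and 0 of the 6 Igkv genes that passed the filter, of which 0 had an unadjusted p under 0.05 and 0 were called by DESeq2. Igkv12-44, with 2 and 11 UMIs in controls and 12 and 23 in stress, had a log2 change of 0.65 (SE 0.63). With 90, 199, 253 and 315 Igkv UMIs in all, most segments had too few for a test. Of the 38 listed genes 22 were tested and 1 rose, Jchain by 1.59 (SE 0.22, edgeR adjusted p = 0.0336). Jchain is used by the plasma cell gate, which B cells did not pass, so its level in B cells depends on that gate. It stands beside the higher share of Igha in T cells of the stress libraries given above.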

How the data were processed

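The authors deposited UMI counts per gene and barcode, not normalised, for 4 libraries. The submitters' processing notes name Cell Ranger 5 and 5.0 and mm10, per the file headers software 3.1.0 wrote the matrices, and no source used here gives the annotation release. Members and lists were chosen with earlier results of these data known. Barcodes were kept with at least 200 genes, 500 UMIs and at most 10% mitochondrial UMIs. Scrublet (scanpy 1.11.5, expected rate 0.8% per 1000 barcodes) marked under 0.5% by its own threshold in all 4 libraries, so 60, 266, 683 and 185 top-scoring cells, the expected numbers, were removed. T cells had neither gate, at least 2 UMIs of Cd3d, Cd3e and Cd3g and no Cd79a, Cd79b or Ms4a1.

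Counts were summed per library and cell type and tested with edgeR 4.0.16 (TMM, filterByExpr, robust; R 4.3.3, limma 3.58.1), with DESeq2 1.42.0 as the alternative. The SE given with an edgeR log2 change is its absolute size divided by the square root of the test's F statistic. It is not a fitted standard error. The code was tested on simulated data. Segments described by usage are the 10 most used in plasma cells, the 10 most used in B cells and any at 3% or more of a library's plasma cells, and genes are those called, at most 10 per direction. Shares carry exact 95% intervals. All 160 Igkv identifiers matched GENCODE vM21 with the same symbol.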

Additional observations from a re-analysis of the deposited data

How the results depend on the processing

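The number of Igkv genes called in plasma cells between groups, 1 in the text, was 5 with DESeq2, 4 without TMM, 2 with TMM from genes other than immunoglobulin genes, 15 without a filter on low counts, 2 with marked doublets kept and 6 with the replicate number as a block; leaving out each library gave 1 to 25. The labels do not say whether same-numbered libraries form pairs. Their deviations from the group means had a correlation of -0.059 in plasma cells and -0.032 in B cells. With 2 libraries per group this cannot decide whether they are paired. In B cells 0 Igkv genes were called under every alternative run, the replicate block included, but the number over all genes went from 13 to 38 with the block and from 7 to 1241 on leaving out libraries. Over all genes in plasma cells it was 46, 72 with the block, 353 without the filter and 15 to 180 on leaving out libraries. Between the cell types the 41 of 41 Igkv calls became 80 of 116 without the filter, where 11 were not higher in plasma cells and 41.8% of all genes were called, and 36 to 54 on leaving out libraries, with 36 of 37 tested without stress 1. By Igkv UMIs the mean difference in share between plasma cells and B cells changed sign for 3 of 20 segments, Igkv12-44 (1.19), Igkv14-111 (-1.35) and Igkv6-17 (-0.61), and for the Igkv6 family (-0.79), and the cause was not tested. The effective number in plasma cells stayed higher under stress in every alternative run, at 8.72 to 10.2 on leaving out libraries; in B cells the difference became 6.63 with the Shannon index, and the cause was not tested. B cells stayed above plasma cells by 1.22 to 12.9. Requiring 10 Igkv UMIs or 80% on 1 segment could not be run in B cells, where at most 6 cells of a library passed. Counting each combination once, leaving out Igkv4-61 and comparing the cell types by UMIs were chosen after seeing the data. Of the alternatives for the usage of single segments 8 of 216 moved a difference by more than the spread between libraries. The 356 control plasma cells limit the comparisons between groups in plasma cells.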
